A study of Canis lupus familiaris with 8 samples.

Results

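Genes of chromatin remodelling and chromosome structure were followed in the left ventricle of diabetic (DM) and control dogs. The members are all probe sets of the Affymetrix Canine Genome Array whose only annotated gene symbol belongs to 1 of these families: ATRX, CHD, SMARC, SMC, ARID, BAZ, BRD, BPTF, CBX, DEK, PSIP1, HDAC, SIRT, KAT, KDM, KMT, SETD, EZH, EED, SUZ12, DNMT, HMG, TOP, RAD, RBBP, NAP1L, STAG, PHF and ING. This gave 199 probe sets of 117 genes, out of 23836 probe sets tested and 6540 genes with a symbol of their own. The rule matched names and used no measured values, but it was set with earlier results of these data known. For SUZ12 and DEK the annotation listed no probe set. One array was hybridised per dog, with 4 male mongrel dogs in each group. Control hearts came from dogs D5, D6, D7 and D8, which received no alloxan. The DM dogs, 0292, 0294, 1087 and 1111, had been injected intravenously with 40 to 60 mg/kg alloxan, a toxin of pancreatic beta cells, and their hearts were taken 4 weeks later. Dogs of both groups carried surgically implanted instruments. Some DM dogs could receive alloxan again when their glucose stayed low, and only injected dogs with high fasting glucose counted as diabetic. Every DM dog therefore carried both the drug and the diabetes, and their effects cannot be told apart. The methods give the tissue as left ventricle, and the labels as cardiac cells.

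In the nucleus DNA is wrapped around histones as nucleosomes. Remodelling motors of the SWI/SNF, ISWI and CHD families use ATP to slide, eject or exchange nucleosomes. Acetyltransferases, deacetylases, methyltransferases and demethylases write and erase marks on histone tails or DNA, and proteins with bromodomains, chromodomains or PHD fingers read them. SMC complexes and cohesin hold or fold chromosomes, topoisomerases relieve the twist of DNA, and HMG proteins bend it or loosen nucleosomes. Sirtuins are NAD-dependent deacylases, of which SIRT3, SIRT4 and SIRT5 work in mitochondria, the organelles that fill much of a heart muscle cell.

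The arrays themselves differed between the groups. Hybridization controls, transcripts added to every sample in fixed amounts, had a mean deposited signal of 13.09 to 13.36 log2 in D5, D6 and D7, 15.77 in D8 and 15.17 to 17.72 in DM dogs. For actin, the 3′ minus 5′ signal, which widens as RNA is degraded, was 1.54 to 3.27 log2 in D5, D6 and D7, 6.67 in D8 and 3.68 to 7.35 in DM dogs. D8 thus lay with the DM dogs in both measures. The same gap for GAPDH went the other way between the groups, with 3.47 to 4.17 in D5, D6 and D7, 5.96 in D8 and 0.63 to 3.14 in DM dogs. The mean correlation of D8 with the other control arrays was 0.776, against 0.863 to 0.865 for D5, D6 and D7. For DM arrays, the mean correlation with the other DM arrays was 0.549 in dog 0292 and 0.633 to 0.656 in the other DM dogs. Of 14 listed heart muscle markers 11 genes were annotated, with 45 probe sets and a median control level of 9.44 log2. The mean level of this list was 9.88 to 10.82 in control dogs and 9.04 to 9.65 in DM dogs, so the groups did not overlap in this mean. Single probe sets were mixed, with 13 higher and 32 lower in DM and a median difference of -1.0. Many of the 45 are of TTN, in both directions. Macrophage markers (11 of 12 genes) had 7.27 to 7.88 and 7.26 to 8.74. Median differences of the other marker lists were -1.25 for endothelial cells (6 of 12 genes), 0.04 for fibroblasts (7 of 11), 0.36 for smooth muscle (5 of 9), 0.52 for macrophages, -0.09 for other leukocytes (4 of 12), 0.88 for fat cells (3 of 6) and 0.16 for cycling cells (2 of 12). No red blood cell gene was annotated. The part of array quality and cell makeup in the differences below was not tested. In bulk tissue, fewer cells of a type and less RNA per cell cannot be told apart.

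Levels are given as log2 of the quantile normalized signal plus an offset of 16, and differences as DM minus control on the same scale. Where 8 values are listed, the first 4 belong to D5, D6, D7 and D8 and the last 4 to 0292, 0294, 1087 and 1111. Levels of different probe sets cannot be ranked against each other, since each has its own probes. Detection calls were not used, so it is not known which weak values exceeded background. Adjusted p-values are those of limma over all probe sets. SE is the standard error of limma, which draws the variance of each probe set towards that of all probe sets. The genes SMARCA1, SMARCA4, BRD7, SMC5, RAD21, SIRT1, SIRT2, SIRT4, KAT8, KAT2B, KAT6B, HDAC1, HDAC3, EZH1, EZH2, EED, DNMT1, SMC4, ARID4B, HMGN2, HMGN3 and NAP1L4 were chosen for description after their values were seen.

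Chromatin probe sets had higher values in DM dogs more often than all probe sets did. At the threshold of the methods, a nominal two-class P of at most 0.01 with at least a 2-fold difference, 15 of the 199 probe sets (7.54%) were higher in DM dogs, against 2.44% of all probe sets. On the lower side 5 (2.51%) passed, against 2.48%. The 15 belong to 13 genes: SMARCA5 and RBBP6 with a pair of probe sets each, and SMC6, ATRX, CHD8, BAZ2B, PHF13, PHF10, ING2, CBX5, PSIP1, SETD6 and HMGB2. The 5 lower ones are of SIRT3, SIRT5, KDM5B, BRD8 and RBBP6, so RBBP6 stands on both sides. After adjustment over all probe sets, limma called 0 of the 199 at an adjusted p under 0.05, as did the test of the methods. In the whole table limma called 0.0% higher and 0.0168% lower, and the test of the methods 0.0378% and 0.0503%. The smallest adjusted p of a chromatin probe set was 0.0664, for SMARCA5. At an unadjusted p under 0.05, limma gave 30 higher (15.1%, against 7.79% of all) and 12 lower (6.03%, against 8.97%). The 4 DM dogs lay above all 4 control dogs in 18 probe sets (9.05%, against 4.93%) and below them in 10 (5.03%, against 5.87%).

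The middle of the list shifted little. Values were higher in DM dogs in 110 probe sets (51.9% of all probe sets were) and lower in 89 (48.1% of all). The median difference was 0.30 log2, with 0.06 over all probe sets and -0.05 over other probe sets that carry a single symbol. Taking 1 probe set per gene, the one with the highest mean signal, the median was 0.01 over 117 genes and -0.07 over 6540. The share past the threshold of the methods remained higher on that count, with 8.55% of chromatin genes against 3.06% of genes higher in DM, and 1.71% against 3.64% lower. The median also moved with the scaling of the arrays. Without quantile normalization it was 0.44 (0.34 over all probe sets), and 130 probe sets were higher and 69 lower. With median centring it was -0.15 (-0.25 over all). With each array set by its hybridization controls it was -1.66 (-1.65 over all), and 17 probe sets were higher and 182 lower. Under that scaling 0 of the 199 passed the threshold of the methods as higher in DM, against 0.0923% of all probe sets, while 1 probe set each of SMARCA5, ATRX, SMC6, PHF13, CHD8, PHF10 and ING2 still had differences of 0.04 to 1.32. It gave every role a negative median, and median centring turned those of RAD proteins, methylation enzymes and readers negative as well. With median centring 7 passed (3.52%, against 1.2%).

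**Figure D1:**
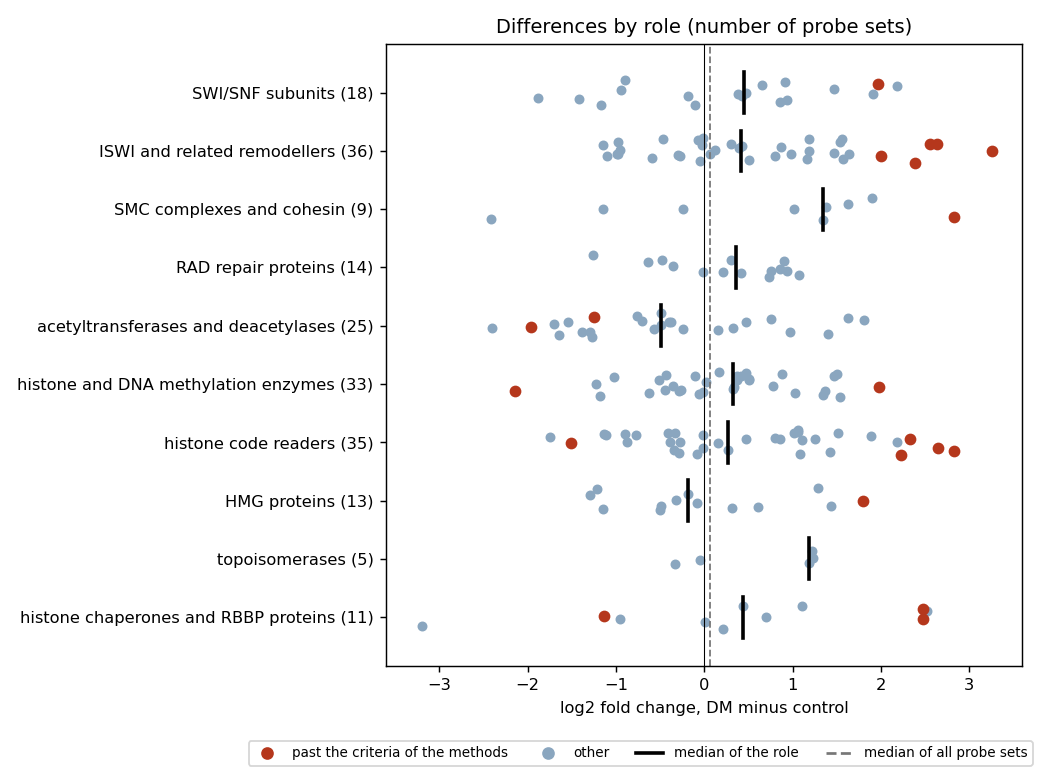
Each point is 1 chromatin probe set, placed by its log2 fold change (DM minus control, horizontal axis) in 1 of 10 roles, with the number of probe sets in brackets. The black bar is the median of the role and the dashed line the median of all probe sets (0.06), and red points passed the threshold of the methods. ISWI and related remodellers hold 5 red points, all above 0, while acetyltransferases and deacetylases have a median of -0.49.

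The difference from all probe sets on the higher side varied with signal level. When all probe sets were split into 5 classes of equal size by their mean level over the 8 dogs, 64 chromatin probe sets (32.2%) fell in the highest class. There 18.8% passed the threshold of the methods as higher in DM, against 5.52% of all probe sets of that class, and 1.56% against 5.87% as lower. The class held 12 of the 15 chromatin probe sets higher in DM at that threshold. The median difference of the class was 0.72 log2, against -0.26 for all. In the next lower class, 0.0% of 46 chromatin probe sets passed as higher, against 0.818%, and their median was -0.35 beside -0.36. In the middle class 0.0% of 35 passed, against 1.76%, with medians of 0.02 and -0.07. Among weak signals the share was again above that of all probe sets, with 6.9% of 29 against 2.5% in class 2 and 4.0% of 25 against 1.59% in class 1, the lowest, though these are 2 and 1 probe sets. The chromatin median was 0.90 in class 2, against 0.35 for all, and 0.01 in class 1, against 0.47. The medians of chromatin and of all probe sets thus had opposite signs in the highest class and the same sign in the class below it.

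**Figure D2:**
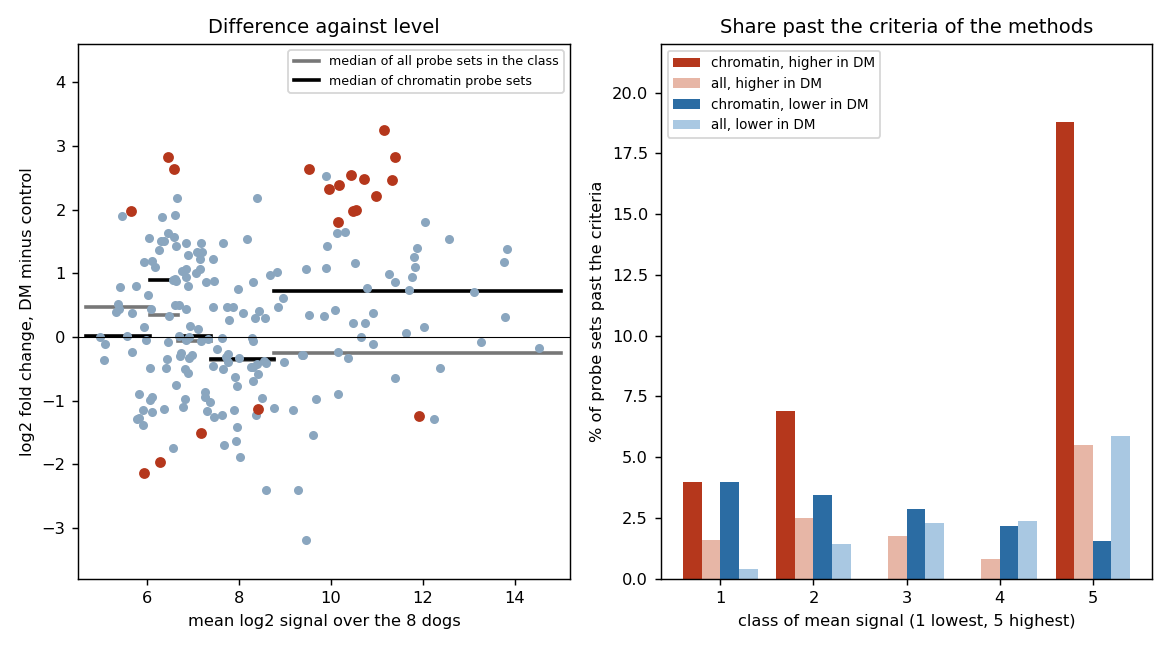
Left, log2 fold change (DM minus control) of each chromatin probe set against its mean log2 signal over the 8 dogs, with the medians of chromatin (black) and of all probe sets (grey) in each of 5 classes of signal and probe sets past the threshold of the methods in red. Right, the percentage of chromatin and of all probe sets past that threshold in each class, where chromatin probe sets higher in DM reach 18.8% in the highest class against 5.52% of all.

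ISWI and related remodellers, with 36 probe sets of 17 genes, had a median difference of 0.41 log2. Of these, 8 had an unadjusted limma p under 0.05 as higher in DM and 0 as lower (7.79% and 8.97% of all probe sets), and 5 higher and 0 lower passed the threshold of the methods (2.44% and 2.48% of all). SMARCA5, the motor subunit of ISWI complexes that spaces nucleosomes, led the list. SMARCA5 1604028_at had 8.93, 8.67, 9.40 and 11.14 in control dogs and 12.46, 12.81, 12.99 and 12.85 in DM dogs. The DM dogs lay close together and above every control dog, and D8 was the highest control. The difference was 3.25 log2 (SE 0.65, limma adjusted p = 0.0664), or 9.49-fold. A second probe set, 1603241_at, had 8.44, 8.50, 8.78 and 10.24 against 11.54, 11.35, 11.11 and 11.47, again without overlap and with D8 nearest to the DM dogs. It differed by 2.38 (SE 0.60, adjusted p = 0.0955). The weak probe set 1599411_at had 4.97, 5.33, 5.13 and 6.66 against 4.86, 6.80, 7.70 and 7.48, a difference of 1.19 (SE 0.73). Here 0292 lay below all control dogs.

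ATRX, a remodeller that deposits the histone variant H3.3 at repeats and telomeres, had 8.74, 8.47, 9.34 and 10.08 against 12.35, 11.34, 12.02 and 11.10 at 1588601_at. All DM dogs were above all control dogs, by 2.55 on average (SE 0.61, adjusted p = 0.0891). Its weak probe set 1604443_at differed by 0.80 (SE 0.68) with overlap. CHD8, a CHD motor that restrains beta-catenin targets, had 5.13, 5.14, 5.67 and 5.10 against 7.75, 6.77, 9.44 and 7.63. Here D8 was the lowest control and the groups did not overlap, with a difference of 2.63 (SE 0.65, adjusted p = 0.0917). The control levels were among the weakest of the array. BAZ2B, a bromodomain partner of ISWI motors, had 9.37, 9.08, 9.23 and 10.55 against 11.93, 11.53, 11.63 and 11.14 at 1591981_at (difference 2.0, SE 0.58, adjusted p = 0.127). Its other probe set, 1604923_at, pointed the opposite way with overlap, at -0.98 (SE 0.76).

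Other members of this role were less uniform. BPTF, the largest subunit of the NURF complex, differed by 1.64 (SE 0.66) and 1.16 (SE 0.86) at its 2 strong probe sets and by -0.03 and -0.05 at its 2 weak ones. BAZ1B, a kinase subunit of the WICH complex, had differences of 0.12 to 1.47 over 4 probe sets, the largest at 1602913_at (SE 0.65). CHD4, the motor of the NuRD corepressor complex, had -0.98 to 0.43 over 5 probe sets, and 0 of them had an unadjusted p under 0.05 (0.16 to 0.912). SMARCA1, the other ISWI motor and the paralogue of SMARCA5, was also less regular. Its strong probe set 1596173_s_at had 10.75, 10.38, 10.90 and 11.09 against 11.63, 12.18, 11.58 and 11.66, a non-overlapping difference of 0.98 (SE 0.54, adjusted p = 0.386) that became -1.73 when arrays were set by the hybridization controls. The other strong one, 1604931_at, differed by 0.06 (SE 0.56), and the weak 1596172_at by 0.87 (SE 0.76), both with overlap. All 3 probe sets of SMARCA1 thus had higher DM means, by unequal amounts.

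**Figure D3:**
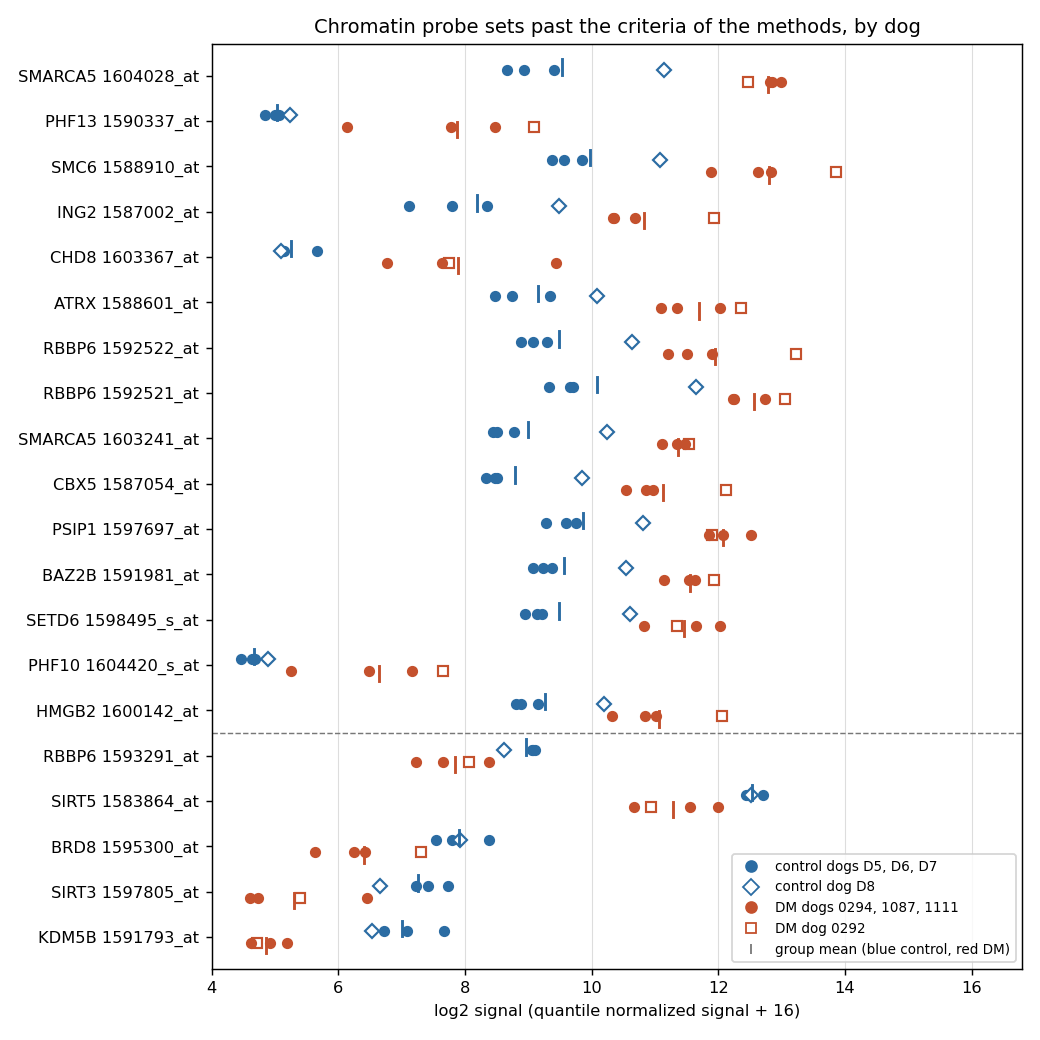
Log2 signal of each dog (horizontal axis) for the 20 chromatin probe sets past the threshold of the methods, sorted by difference, with the 15 higher in DM above the dashed line and the 5 lower below it. Blue marks are control dogs with D8 as an open diamond, red marks DM dogs with 0292 as an open square, and vertical ticks are group means. D8 is the control nearest to the DM dogs in 14 of the 15 upper probe sets.

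Dog D8 took the same place in most of these probe sets. It was the highest control in 14 of the 15 past the threshold as higher in DM (93.3%), CHD8 being the exception, against 53.4% of the 581 such probe sets of the whole array. Over the 15, D8 exceeded the mean of the other 3 control dogs by a median of 1.42 log2, and the DM mean exceeded it by 2.79. Over all 581 the medians were 0.42 and 2.13. D8 was the lowest control in 3 of the 5 lower probe sets (60.0%, against 65.7% of 591). Of the array measures given above, the hybridization controls and the actin gap placed D8 with the DM dogs. Its GAPDH gap lay farther from theirs than that of any other control dog. The part of array measures in this was not tested. Without D8, limma called 4 chromatin probe sets at an adjusted p under 0.05, 2 of SMARCA5 and 1 each of RBBP6 and SMC6, all higher in DM. Without 1111 it called 3, those of SMC6 and SMARCA5 as higher and 1 of SIRT3 as lower. Leaving out any other dog gave 0. These limma counts are given without the share over all probe sets, so they are not set against the array. The threshold of the methods also moved with single dogs: the 15 became 6, 7 and 8 without D5, D6 and D7 (3.02%, 3.52% and 4.02%, against 1.36%, 1.37% and 1.49% of all) and 8 without 0294 (4.02%, against 2.13%). The 5 became 1, 2 and 1 without D5, D6 and D7 (0.503%, 1.01% and 0.503%, against 1.21%, 1.17% and 1.27%), 2 without 0294 (1.01%, against 2.1%) and 1 without 1087 (0.503%, against 1.88%). Without D8 there were 19 higher (9.55%, against 3.11% of all), and without both D8 and 0292, a setting chosen after seeing the data, 31 (15.6%, against 4.58%).

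SWI/SNF subunits, with 18 probe sets of 11 genes and a median of 0.45, did not move as a block. The motor SMARCA4 had 7.69, 7.79, 7.11 and 5.03 against 7.28, 8.42, 9.03 and 8.75, with overlap (difference 1.47, SE 0.73). PHF10, a subunit of the PBAF form, passed the threshold of the methods at 1604420_s_at with 4.46, 4.64, 4.68 and 4.89 against 7.65, 7.16, 6.49 and 5.26 (difference 1.97, SE 0.63, adjusted p = 0.152). The stronger probe set of PHF10 gave -1.42 (SE 0.73) instead. SMARCC2, a scaffold subunit, had 2 probe sets above and 1 below 0. Its smallest p was at 1599908_at, with 6.52, 4.84, 6.23 and 4.62 against 8.14, 8.54, 7.85 and 6.40 (2.18, SE 0.69, adjusted p = 0.15). The groups overlapped there, with D5 above 1111. The others, also with overlap, were 1604203_at, which gave 1.91 (SE 0.84), and 1603955_at, which gave -1.17 (SE 0.83). BRD7, a PBAF bromodomain subunit, had -1.88 (SE 0.68) at one probe set and -0.11 (SE 0.53) at a stronger one that differed little between dogs.

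The role of SMC complexes and cohesin held the highest median, 1.34 log2 over 9 probe sets of 6 genes, and members at both ends. SMC6, which with SMC5 forms a complex for the repair and untangling of replicated DNA, had 9.57, 9.38, 9.85 and 11.08 against 13.86, 12.63, 12.83 and 11.88. All 4 DM dogs lay above all controls, by 2.83 (SE 0.65, adjusted p = 0.0847). Its partner SMC5 had differences of 1.34 (SE 0.71) and 1.01 (SE 1.08) with overlap at each, which became -0.30 and -0.56 with hybridization control scaling. RAD21, the cohesin subunit that closes the ring, had 12.82, 12.65, 12.94 and 14.12 against 14.04, 14.77, 14.82 and 14.40 (1.38, SE 0.59). D8 stood within the DM range. SMC4, a motor of condensin, had 1.63 (SE 0.62) at a weak probe set and -0.24 (SE 0.73) at a strong one. STAG1, a cohesin subunit that binds RAD21, went the other way. At 1592496_at it had 10.73, 10.64, 10.88 and 9.75 against 9.57, 5.97, 8.24 and 8.57 (difference -2.41, SE 0.75, adjusted p = 0.144), with no DM dog reaching a control. At 1592497_at 3 control dogs stayed within 10.31 to 10.46 while D8 had 7.79, and DM dogs ranged from 5.16 to 10.12, which left a difference of -1.15 (SE 1.04).

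RAD proteins of DNA repair differed less. Over 14 probe sets of 10 genes the median was 0.36, and 0 had an unadjusted limma p under 0.05 or passed the threshold of the methods. Of all probe sets, 7.79% were higher and 8.97% lower at that p, and 2.44% and 2.48% at that threshold. RAD50, a repair ATPase related to SMC proteins, had higher means at 3 of 3 probe sets (0.21 to 1.07). RAD23B, a shuttle of ubiquitinated proteins, had higher means at both (0.94, SE 0.58, and 0.73, SE 0.56), and all 5 turned negative under hybridization control scaling. Among topoisomerases, TOP2B, which cuts both strands in non-dividing cells, had 12.74, 12.58, 13.34 and 14.05 against 13.54, 15.12, 14.38 and 14.37 at its strong probe set (1.18, SE 0.61) with overlap, and TOP1, which cuts 1 strand, differed by 1.23 (SE 0.66), values that became -1.13 and -0.64 with hybridization control scaling. The 5 topoisomerase probe sets had a median of 1.18, and 0 had an unadjusted p under 0.05.

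Acetyltransferases and deacetylases were the largest role with a negative median, -0.49 log2 over 25 probe sets of 13 genes, with 8 higher and 17 lower in DM. An unadjusted limma p under 0.05 was reached by 3 higher and 5 lower probe sets (7.79% and 8.97% of all probe sets), and 0 higher and 4 lower ones had no overlap (4.93% and 5.87% of all). All 5 lower ones are of sirtuins, which supply 8 of the 17 probe sets with lower means. SIRT3, the main deacetylase of mitochondrial enzymes, had 9.89, 10.00, 9.58 and 9.70 against 6.02, 6.70, 7.65 and 9.17 at 1584362_at. The control dogs lay close together, D8 included, and every DM dog was below them, by -2.40 on average (SE 0.70, adjusted p = 0.127). At 1597805_at, the SIRT3 probe set past the threshold of the methods, the values were 7.73, 7.22, 7.41 and 6.66 against 5.40, 6.46, 4.74 and 4.61 (difference -1.96, SE 0.62, adjusted p = 0.147). The third, 1594192_s_at, had 10.47, 10.56, 10.49 and 10.00 against 10.91, 5.77, 8.92 and 9.79, a difference of -1.54 (SE 0.91). There 0292 was above all controls and the other DM dogs below them.

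SIRT5, which removes succinyl and malonyl groups in mitochondria, had the steadiest control values of the sirtuins, 12.44, 12.47, 12.70 and 12.52, against 10.94, 10.67, 11.56 and 11.99 (difference -1.25, SE 0.56, adjusted p = 0.288). No DM dog reached the lowest control. SIRT4, the remaining mitochondrial sirtuin, had 8.46, 8.32, 8.63 and 8.70 against 6.08, 8.18, 4.78 and 8.25 (-1.70, SE 0.78, adjusted p = 0.291). Its DM dogs fell into a near-control and a low pair, and the groups did not overlap. Together, 5 of 5 probe sets of SIRT3, SIRT4 and SIRT5 had lower DM means (median -1.70), where 48.1% of all probe sets did. An unadjusted limma p under 0.05 was reached by 4 of them (8.97% of all probe sets as lower). Each kept that direction under all scalings of the arrays. The part of the lower mean level of heart muscle markers was not tested.

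**Figure D4:**
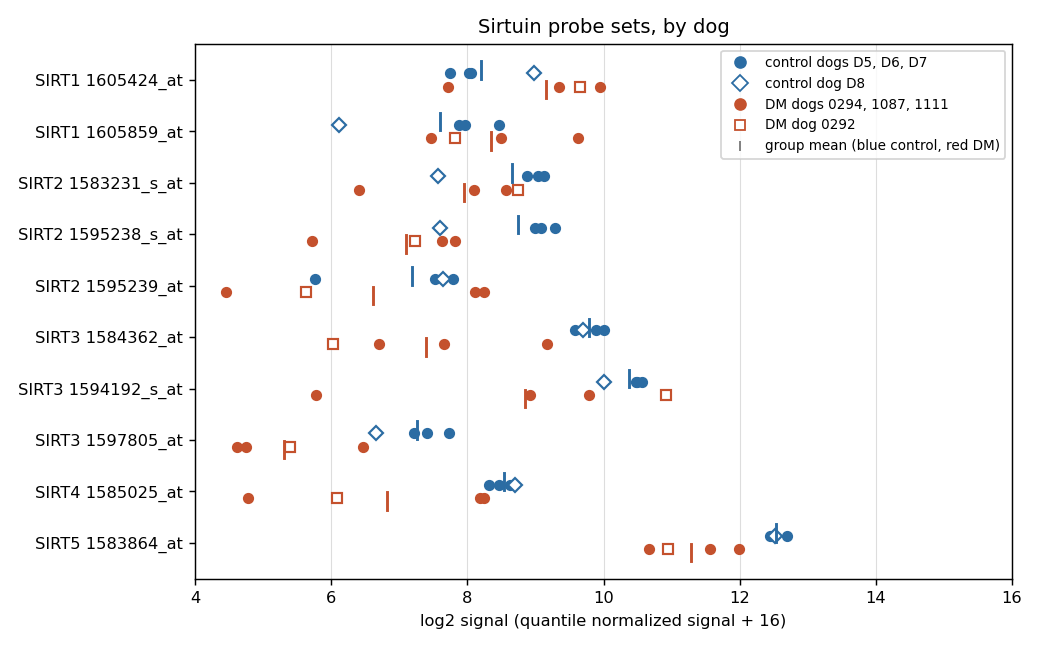
Log2 signal of each dog for the 10 sirtuin probe sets, with control dogs in blue (D8 as an open diamond), DM dogs in red (0292 as an open square) and group means as vertical ticks. Both probe sets of SIRT1 have higher DM means and overlap, and the 5 of SIRT3, SIRT4 and SIRT5 have lower DM means, 4 of them without overlap.

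SIRT2, mostly a cytoplasmic tubulin deacetylase, had lower means at 3 of 3 probe sets (-0.57 to -1.64), with overlap at each and 1 unadjusted p under 0.05. SIRT1, the nuclear member, had higher means at both (0.97, SE 0.65, and 0.75, SE 0.71), with overlap, and turned negative under hybridization control scaling. Its 1605424_at had 7.75, 8.05, 8.02 and 8.98 against 9.66, 9.34, 9.94 and 7.72, where D8 stood on the side of the DM dogs and 1111 below all controls. KAT8, which acetylates histone H4, had lower means at all 3 of its weak probe sets (-1.27 to -1.38, SE 0.67 to 0.74) with overlap, at DM means of 5.12 to 5.21 that lie near the floor of the array.

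The zinc-dependent deacetylases (HDACs), with 7 probe sets of 5 genes, had 3 higher and 4 lower means. HDAC2, a class I enzyme, had 10.55, 10.40, 11.15 and 12.45 against 13.46, 12.92, 13.02 and 12.40. The control dog D8 lay just above 1111, which made the only overlap, and the difference was 1.81 (SE 0.63, adjusted p = 0.18). Its relatives were closer to 0, with -0.38 (SE 0.55) for HDAC1 and -0.76 to 0.47 over 3 probe sets of HDAC3. KAT2B, the acetyltransferase PCAF, and KAT6B each had 1 probe set with an unadjusted p under 0.05 (1.63, SE 0.72, and 1.40, SE 0.59), while their other probe sets gave -0.49 to 0.16.

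Enzymes of histone and DNA methylation, 33 probe sets of 23 genes, had a median of 0.32. In each direction 1 passed the threshold of the methods (2.44% of all probe sets higher and 2.48% lower), a share near that of the array. SETD6, a lysine methyltransferase whose known substrate is the NF-kappaB subunit RELA, had 8.95, 9.14, 9.22 and 10.60 against 11.34, 12.03, 11.64 and 10.82 at 1598495_s_at (1.98, SE 0.61, adjusted p = 0.141). The DM dogs were above the controls, D8 by far the nearest. The second SETD6 probe set went the same way, at 1.53 (SE 0.61), with D8 above 0292. KDM5B, an eraser of histone H3 lysine 4 methylation, had 7.09, 7.67, 6.73 and 6.53 against 4.71, 4.92, 4.62 and 5.19 at 1591793_at. The difference was -2.14 (SE 0.56, adjusted p = 0.101), among the more regular in the list, with DM values at the floor of the array. The other KDM5B probe set, 1588913_at, was weak in both groups and gave 0.51 (SE 0.69). The remaining members included the polycomb proteins EZH1, EZH2 and EED, with differences of -0.51 to 0.17 over 4 probe sets and 0 unadjusted p under 0.05, and the maintenance methyltransferase DNMT1, with -0.26 (SE 0.72) and -0.43 (SE 0.65).

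Readers of histone marks, 35 probe sets of 22 genes, had a median of 0.27. They held 4 probe sets past the threshold of the methods as higher and 1 as lower (2.44% and 2.48% of all probe sets). ING2, a PHD finger protein that brings a deacetylase complex to methylated histone H3, had 7.80, 7.12, 8.35 and 9.49 against 11.93, 10.35, 10.69 and 10.33 (2.64, SE 0.67, adjusted p = 0.0972). CBX5, the heterochromatin protein HP1 alpha, had 8.47, 8.33, 8.50 and 9.85 against 12.12, 10.97, 10.85 and 10.55 (2.33, SE 0.62, adjusted p = 0.104). In both genes D5, D6 and D7 were low, D8 was next and the DM dogs were highest. PHF13, a PHD finger protein that binds the same mark, was near the floor in control dogs, at 5.00, 5.06, 4.85 and 5.24, against 9.09, 7.78, 6.14 and 8.48 (2.83, SE 0.68, adjusted p = 0.0891), so its fold depends on a weak control level. Its other probe set gave 1.89 (SE 0.77), with 0292 at 5.05 among the controls.

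PSIP1, which tethers proteins to active genes and is known as LEDGF, gave opposite answers at its probe sets. At 1597697_at it had 9.60, 9.28, 9.76 and 10.81 against 11.90, 12.52, 12.07 and 11.85 (2.22, SE 0.58, adjusted p = 0.101), and at the stronger 1604192_at it had 11.13, 10.87, 11.15 and 11.54 against 13.23, 12.25, 12.59 and 11.65 (1.25, SE 0.58). Neither showed overlap. The weak 1604848_at had 7.86, 7.64, 8.20 and 6.04 against 4.52, 6.97, 5.88 and 5.37, a difference of -1.75 (SE 0.71) in which D8 lay within the DM range. BRD8, a bromodomain subunit of the NuA4 acetyltransferase complex, was lower at 1595300_at, with 7.55, 7.80, 8.38 and 7.92 against 7.30, 5.63, 6.42 and 6.25 (-1.51, SE 0.59, adjusted p = 0.222). At its strong probe set 1595301_at the difference was 1.08 (SE 0.71). The third BRD8 probe set, 1583242_at, had lower DM means in all 19 settings run, by -2.38 to -0.07. PHF7, a PHD finger protein active in the male germ line, had -0.01 to 1.51 over 4 probe sets. ARID4B, a subunit of the SIN3A corepressor complex, had differences of 2.18 (SE 0.70) and 1.42 (SE 0.72).

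HMG proteins, 13 probe sets of 7 genes, had a median of -0.18. HMGB2, a DNA-bending protein, had 8.81, 8.89, 9.15 and 10.19 against 12.06, 11.01, 10.84 and 10.32 at 1600142_at (1.80, SE 0.62, adjusted p = 0.177), with D8 just below 1111. HMGB1, its abundant relative, was among the strongest members and nearly level: at its 3 brightest probe sets the means were 14.63 and 14.44, 13.64 and 13.94, and 13.31 and 13.23 in control and DM dogs (SE 0.53 to 0.55). Its other probe sets gave 0.61 (SE 0.64) and 1.43 (SE 0.74). All 4 probe sets of the nucleosome-binding HMGN proteins had lower DM means (-0.32 to -1.29). The difference of HMGN2 was less steady, at 0.04 under 1 of the other scalings and -1.01 to 0.60 when single dogs were left out. HMGN1 had 13.20, 12.97, 13.06 and 12.25 against 10.91, 11.25, 11.72 and 12.43 (-1.29, SE 0.59, adjusted p = 0.289), where 1111 overlapped with D8. HMGN3 had 12.46, 12.70, 12.52 and 12.77 against 12.16, 12.34, 11.94 and 12.03 at 1586472_s_at, a small but non-overlapping difference of -0.49 (SE 0.53, adjusted p = 0.677).

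Histone chaperones and RBBP proteins, 11 probe sets of 5 genes, had a median of 0.44. RBBP6, a ubiquitin ligase that also takes part in cleaving messenger RNA ends, had 5 probe sets in 2 opposing sets. At 1592521_at it had 9.71, 9.33, 9.66 and 11.65 against 13.05, 12.24, 12.73 and 12.23 (2.47, SE 0.65, adjusted p = 0.101), and at 1592522_at 9.07, 8.89, 9.30 and 10.64 against 13.22, 11.50, 11.90 and 11.20 (2.48, SE 0.66, adjusted p = 0.104). Neither showed overlap. At 1593291_at it had 9.08, 9.11, 9.06 and 8.62 against 8.07, 7.66, 7.23 and 8.38 (-1.13, SE 0.56, adjusted p = 0.329), also without overlap, and 1593290_at gave -0.96 (SE 0.85). The fifth probe set, 1606127_at, gave 0.21 (SE 0.68). RBBP8, the CtIP protein that trims broken DNA ends, had 8.03, 7.96, 8.30 and 10.17 against 9.60, 12.01, 11.84 and 11.12 (2.52, SE 0.73, adjusted p = 0.127), with 0292 below D8 and the other DM dogs above it. NAP1L4, a histone H2A-H2B chaperone, had the most negative difference in the list, at 1583745_at, with 11.35, 11.85, 10.93 and 10.05 against 5.28, 9.59, 6.69 and 9.86 (-3.19, SE 0.95, adjusted p = 0.134). Its DM dogs spread over more than 4 units, and its weak second probe set gave 0.44 (SE 0.77).

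**Figure D5:**
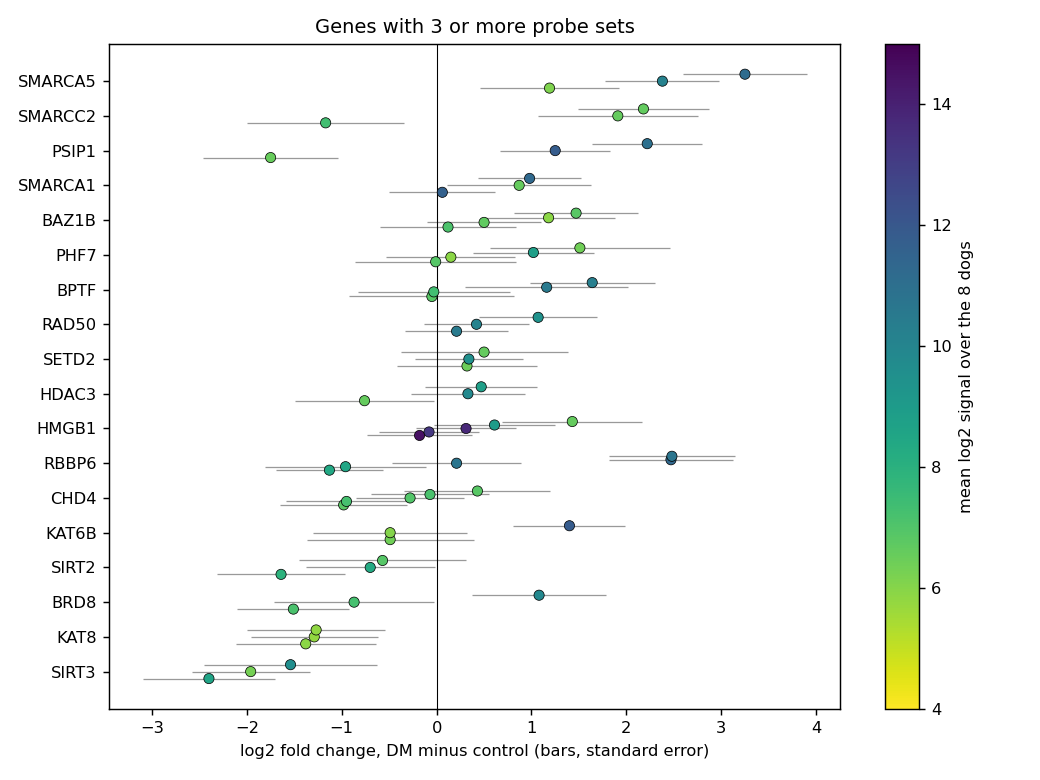
Log2 fold change (DM minus control) of each probe set of the 18 genes with 3 or more probe sets, with its standard error as a bar and colour for the mean log2 signal over the 8 dogs. Probe sets of SMARCA5 lie above 0 and those of SIRT3 and KAT8 below it, while RBBP6, PSIP1, SMARCC2, BRD8 and KAT6B have probe sets on both sides.

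Disagreement between probe sets of a gene was common. Of the 55 genes with several probe sets, 21 had higher DM means at all, 10 lower means at all and 24 a mixture. The share going 1 way was 56.4%, against 46.0% of the 2349 such genes of the array. Of the 199 probe sets, 23 have the suffix s_at, whose probes match several transcripts, and 1 has x_at, whose probes can match other sequences. Those of SETD6, PHF10, HDAC2 and SMARCA1 named above are among the former. No test here tells which probe set of a mixed gene represents its transcripts.

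Proteins that work with these families but carry other names were split evenly between the directions. Over 115 probe sets of 72 genes (partners of INO80 and NuA4, cohesin and condensin, corepressors, polycomb and trithorax, further acetylation and methylation enzymes, and histones with their chaperones), values were higher in DM in 58 and lower in 57, with a median of 0.02. At an unadjusted limma p under 0.05 there were 9 higher and 7 lower, 0 passed after adjustment, and 3 higher and 2 lower passed the threshold of the methods. Over all probe sets the shares were 7.79% and 8.97% at the unadjusted p, and 2.44% and 2.48% at the threshold of the methods, so the shares of these 115 lay near the background or below it. SSRP1, a subunit of the histone chaperone FACT, had the smallest p of these, with 8.39, 8.60, 8.54 and 8.61 against 4.66, 5.10, 5.20 and 5.09 at 1586120_x_at (-3.52, SE 0.53, adjusted p = 0.0599). Its control dogs were close together, D8 included, and its DM dogs were near the floor of the array. Its other 2 probe sets gave 0.87 (SE 0.88) and 0.79 (SE 0.79). ANP32B, an acidic histone-binding protein, held 2 of the 3 higher ones. At 1595246_at it had 7.71, 8.26, 8.12 and 7.41 against 9.96, 9.85, 10.75 and 10.39 (2.36, SE 0.56, adjusted p = 0.0876), and at 1595247_at the difference was 1.62 (SE 0.57, adjusted p = 0.187), both without overlap. Its strongest probe set, 1603793_at, gave 0.71 (SE 0.58) with overlap. The remaining higher one, of the histone variant MACROH2A1 and chosen after its values were seen, differed by 1.06 (SE 0.55, adjusted p = 0.35), and its other probe sets gave -0.42 each. PRMT1, the main arginine methyltransferase, was lower without overlap (-2.78, SE 0.69, adjusted p = 0.0917). NSMCE1, a subunit of the SMC5/6 complex, had a difference of -2.68 (SE 0.85, adjusted p = 0.148), opposite in sign to that of SMC6. NCOR1, a scaffold of an HDAC3 complex, had 1.42 (SE 0.60, adjusted p = 0.258) at 1 probe set and 0.22 (SE 0.69) at the other. Of the other genes with the smallest p in their lists, none passed the threshold of the methods. The largest differences in size at their probe sets were 1.63 (SE 0.67) for ACTR8 and 1.92 (SE 0.80) for MORF4L1, of INO80 and NuA4 complexes, -1.66 (SE 0.82) for NIPBL, the cohesin loader, and 1.62 (SE 0.73) for SAP30L, of the SIN3A complex. They were -1.89 (SE 0.73) and -1.76 (SE 0.73) for the polycomb proteins PCGF1 and PCGF3, and 1.79 (SE 0.70) for SUV39H1, a histone H3 methyltransferase of heterochromatin. ACTR8, MORF4L1 and NIPBL each had another probe set of the opposite sign. By list, the medians were -0.07 for INO80 and NuA4 partners, -0.26 for cohesin and condensin partners, 0.44 for corepressor partners, -0.51 for polycomb and trithorax partners, -0.07 for further acetylation and methylation enzymes, and 0.28 for histones and their chaperones.

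Spread between dogs was wider in the DM group. The median SD over the 199 probe sets was 0.67 log2 in control and 1.05 in DM dogs, and 0.70 and 1.23 over all probe sets. DM dogs had 56.8% (0292), 58.3% (0294), 59.8% (1087) and 56.8% (1111) of chromatin probe sets above the mean of the control dogs, with 50.2% to 51.1% for all probe sets. Control dogs set against the mean of the other 3 had 48.2% to 49.7%, and D8 had 53.8%. The 4 DM dogs were thus alike in this share, and each was above D8.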

How the data were processed

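Left ventricular RNA of 4 control and 4 DM dogs was hybridised to Affymetrix Canine Genome Arrays, 1 per dog. The authors' deposited values are signal intensities per probe set from MAS5, on a linear scale, with each array scaled to a trimmed mean of 500. The RMA step named in the methods is not in these values. For the present values, arrays were quantile normalized on the log2 scale and returned to the linear scale. Then 16 was added and log2 taken again. The 77 control probe sets of the manufacturer were left out, and 23836 were tested with limma 3.58.1 in R 4.3.3 (group only, two-sided, Benjamini-Hochberg over all). The study's own threshold was computed from the same log2 values. The number of arrays limits precision. The limma p-values and SEs set a difference against the spread between dogs, after the variance of each probe set is drawn towards that of all probe sets. An SE can therefore exceed the spread of its own probe set. At HMGN3 1586472_s_at the SDs were 0.15 in control and 0.17 in DM dogs, and the SE was 0.53. Symbols came from the platform annotation, and 196 of 199 matched a RefSeq gene identifier with the same symbol. Figures were drawn with matplotlib 3.10.9.

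Groups follow the deposited labels. The design text names a larger number of dogs than the methods do. These 8 arrays were analysed. Members, roles and lists were chosen with earlier results of these data known. Named genes are members past either threshold without overlap (at most the 12 largest each way), the 2 genes with the smallest p in each role and in each related list, genes with 4 or more probe sets, and ING2, SMARCA5, SMC6, CBX5 and SIRT3. Others are given as chosen after their values were seen. Marker lists cover heart muscle, endothelial, fibroblast, smooth muscle, macrophage, other leukocyte, red blood, fat and cycling cells. Alternatives were 4 other scalings, offsets of 1 and 64, a filter on dim probe sets (above the 40th percentile), array weights, robust and trend options, 1 probe set per gene, leaving out each dog and, chosen after seeing the data, leaving out D8 and 0292 together. The steps were run on simulated data with equal spread in both groups and no differences between whole arrays. That run does not check the steps under the unequal spread and array differences described above.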

Additional observations from a re-analysis of the deposited data

Results flagged for a closer look

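Among the named probe sets, 112 groups of 4 dogs were searched for a dog that stood far from the other 3, and 11 were found. Chance gives about 1 in 20 for independent, unselected groups. These groups share the same dogs, and many come from probe sets picked by their values, so that rate is no benchmark here. D8 was the separate dog in 8 of the 11. D8 was above the other control dogs at RBBP6 1592521_at (11.65 against 9.33 to 9.71), CBX5 1587054_at (9.85 against 8.33 to 8.50), SETD6 1598495_s_at (10.60 against 8.95 to 9.22), RBBP8 1591754_at (10.17 against 7.96 to 8.30) and HMGB1 1593650_at (10.13 against 8.14 to 8.19). It was below them at RBBP6 1593291_at (8.62 against 9.06 to 9.11), CHD4 1583997_x_at (7.32 against 7.81 to 7.90) and SIRT3 1594192_s_at (10.00 against 10.47 to 10.56). In these 8 probe sets D8 was displaced towards the DM mean each time. D7 had 5.67 at CHD8 1603367_at against 5.10 to 5.14 in the other control dogs. Among DM dogs, 1111 had 5.26 at CHD4 1583997_x_at against 7.22 to 7.42, and 0292 had 13.41 at HMGB1 1588959_at against 13.14 to 13.18.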

How the results depend on the processing

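The count of chromatin probe sets called by limma, 0 as reported, was 62 (all lower in DM) with arrays scaled to the hybridization controls, 10 with an offset of 64, 17 with array weights, 16 with robust and trend options, 0 to 4 when single dogs were left out and 19 without D8 and 0292, a setting chosen after seeing the data. Shares of all probe sets called by limma in these settings are not given here, so these counts do not set chromatin apart. The 15 higher in DM at the threshold of the methods became 7 with median centring (3.52%, against 1.2% of all probe sets). They became 0 with hybridization control scaling (against 0.0923%), 6 to 19 without single dogs and 31 without D8 and 0292 (15.6%, against 4.58%). The 5 lower became 2 without quantile normalization (1.01%, against 2.31% of all probe sets) and 3 with cyclic loess (1.51%, against 2.49%). With hybridization control scaling they became 17 (8.54%), a share below the 10.8% of all probe sets. They were 3 without dim probe sets (2.07%, against 3.47%) and 1 to 5 without single dogs. The median of 0.30 became 0.44 without quantile normalization, -0.15 with median centring, -1.66 with hybridization control scaling and 0.01 with 1 probe set per gene, and was 0.17 to 0.35 without single dogs. Hybridization control scaling (all probe sets -1.65) left 17 of the 199 probe sets higher in DM and turned negative, among probe sets named by the rule with an unadjusted p under 0.05, RBBP6 1592522_at (-0.13) and 1592521_at (-0.15), CBX5 (-0.11), PSIP1 1597697_at (-0.36), BAZ2B 1591981_at (-0.61), HDAC2 (-0.80), SETD6 1598495_s_at (-0.53), HMGB2 1600142_at (-0.84), BPTF 1599923_at (-0.64) and BAZ1B 1602913_at (-0.29). Among those chosen after their values were seen or described as further probe sets, it did the same to RAD21 (-0.88), PSIP1 1604192_at (-1.45), SETD6 1603473_s_at (-1.03), KAT2B 1601529_at (-1.07), KAT6B 1596480_at (-1.29) and SMC4 1597180_at (-0.16). Under the other 17 settings run, all 20 probe sets past that threshold kept their sign wherever they were tested. Among named probe sets without an unadjusted p under 0.05, the sign changed in 58 values of 23 probe sets, 17 of them under hybridization control scaling. The cause was not tested. No paired analysis was made, because the control and DM hearts came from different dogs. Signal over background limits weak probe sets, since detection calls were not used.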
